A study of Arabidopsis thaliana with 4 samples.

Results

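SWEET proteins are membrane carriers that let sugars pass down their concentration gradient, and plants use them where cells must release sugar to a neighbour. In Arabidopsis thaliana flowers, SWEET8, also called RUPTURED POLLEN GRAIN1, is known for its role in forming the pollen wall in the anther, and SWEET9 is known for exporting sucrose into nectar at the nectary. The values below are those of every gene probe on the arrays that lists a SWEET gene, 15 of 26474 gene probes. They cover 15 SWEET genes, of 14034 genes that any probe lists. Of the probes, 14 list a symbol made of SWEET and a number, and the 15th lists SAG29, a synonym of SWEET15 in the gene table of assembly TAIR10.1. Of the 17 SWEET genes in that table, 15 were listed by at least 1 probe. The 2 that no probe lists, SWEET11 and SWEET12, are known as sucrose exporters of phloem loading and were not analysed here.

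Each of 4 two-channel Operon arrays, called sets 1 to 4, carried RNA from inflorescences of the apetala2 mutant in one channel and from inflorescences of the wild type in the other. Per the labels, channel 1 held apetala2 RNA on sets 1 and 3, and channel 2 held it on sets 2 and 4. The allele, the strain, the plants' age and the dyes are not named. Whether separate plants were used for each set is not stated either, so p-values measure only the spread between these arrays. APETALA2 is a transcription factor needed for sepal and petal identity. Inflorescences pool buds and open flowers, so fewer cells of a type and less RNA per cell cannot be told apart in any ratio below.

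The SWEET genes are grouped by sequence into 4 clades. Carriers of clades I and II are known mostly for glucose and other hexoses, those of clade III for sucrose, and those of clade IV for sugars crossing the vacuolar membrane. Every probe that listed several SWEET genes listed genes of 1 clade. Only 5 probes listed 1 gene alone, those of SWEET2 (AT3G14770), SWEET8 (AT5G40260), SWEET9 (AT2G39060), SWEET10 (AT5G50790) and SWEET15 (AT5G13170). Another 6 listed 2 genes and 4 listed 3 genes, and a value of such a probe cannot be given to any of its genes. These are written with a slash, as SWEET13/SWEET14.

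Each value is a log2 ratio of the 2 channels, normalized by the authors, with no signal intensity beside it, so no level of a transcript can be given. Values at the limit of the scale, a ratio of 100 either way, were left out as not measured. The sources used here do not give the channel in the numerator. The sign of sets 2 and 4 was first turned as their labelled channels require. In this labelled orientation a negative value means lower in apetala2 if channel 1 is the numerator, and lower in wild type if channel 2 is.

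The arrays did not follow those labels over all probes. Across probes, which are not independent replicates, the deposited ratios had r = -0.479 between sets 1 and 2 and r = -0.474 between sets 3 and 4, as when channels are exchanged. Arrays of like labelled channel also ran against each other, with r = -0.227 for sets 1 and 3 and r = -0.119 for sets 2 and 4. Arrays of unlike channel ran together instead, with r = 0.313 for sets 1 and 4 and r = 0.307 for sets 2 and 3. Each result is therefore also given in a second orientation, in which the signs of sets 2 and 3 are turned, called the turned orientation below. It was chosen from the data, and its p-values make no allowance for that choice. Neither which orientation is right nor the overall sign of either is settled, so values are given by side and not by genotype. Both orientations treat sets 1 and 2 alike. The pair value of sets 1 and 2 is set 1 minus set 2, divided by 2, and that of sets 3 and 4 is formed the same way.

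Most SWEET probes carried ratios far from 0. Of the 15 probes, 14 were measured on all 4 arrays. The root mean square of the 4 ratios exceeded 1 on the log2 scale in 8 of these 14 SWEET probes (57.1%), against 8.73% of all 25185 probes measured on 4 arrays. The median of this measure was 1.06 over SWEET probes and 0.340 over all probes. The 8 were SWEET8, SWEET9, SWEET15, SWEET1/SWEET3, SWEET13/SWEET14, SWEET4/SWEET5/SWEET8, SWEET6/SWEET7/SWEET8 and SWEET10/SWEET13/SWEET14. Several of these share a listed gene and are not separate observations.

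By their pair values on sets 1 and 2, the SWEET probes lay mostly on 1 side. The pair value of sets 1 and 2 was below 0 for 12 of 14 SWEET probes (85.7%), against 43.3% of all probes, and below -1 for 7 of 14, against 5.38%. Of the 12, 10 had set 1 below 0 and set 2 above 0, a pattern not counted over all probes. SWEET9 and SWEET4/SWEET5 were below 0 on both sets. Several of the 12 share a listed gene. No SWEET probe had a pair value above 1 there, against 2.04% of all probes. Its median was -0.81 over SWEET probes and 0.047 over all probes. On sets 3 and 4 the same probes divided. Their pair value was below 0 for 5 of 14 (35.7%), against 52.7% of all probes, below -1 for 1, against 1.72%, and above 1 for 3, against 3.93%. It ranged from -1.83 for SWEET15 to 1.58 for SWEET4/SWEET5/SWEET8.

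**Figure D1:**
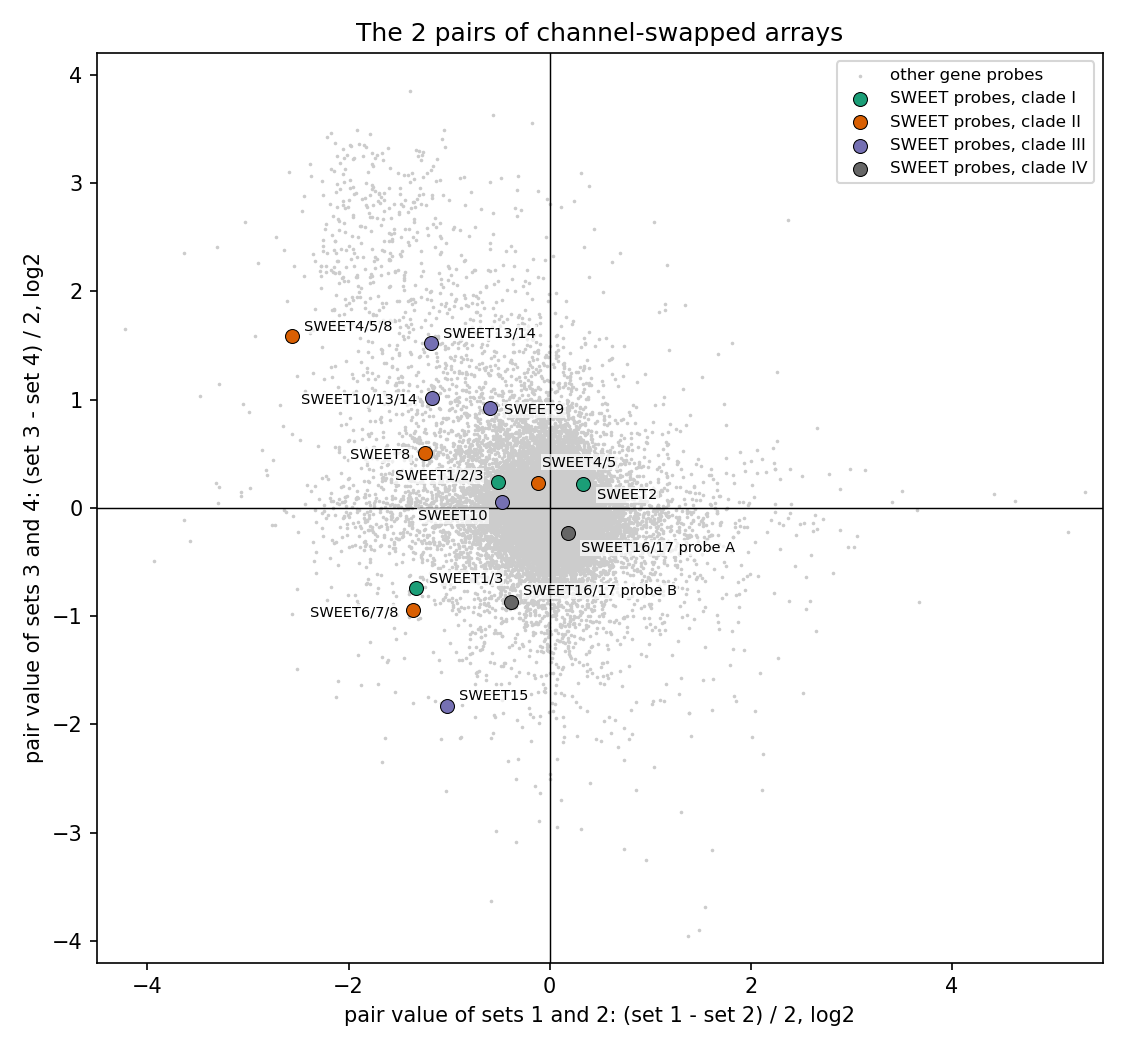
Pair value of sets 1 and 2 (x axis) against that of sets 3 and 4 (y axis), both on the log2 scale, for the 14 SWEET probes measured on all arrays, coloured by clade, and for the other gene probes in grey. All SWEET probes but SWEET2 and SWEET16/SWEET17 probe A lie left of 0, and they spread from -1.83 to 1.58 up the page.

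In the labelled orientation 0 of 14 SWEET probes passed, and no other probe did. The test was limma's moderated test against 0, two-sided, over 25777 probes measured on at least 3 arrays, with a Benjamini-Hochberg adjusted p under 0.05 as the threshold (0% of probes called). Unadjusted p under 0.05 was reached by 4 of 14 SWEET probes (28.6%), against 6.55% of all probes, 1689 in number. The lowest limma adjusted p among SWEET probes was 0.611. In the turned orientation 1 of 14 SWEET probes passed (7.14%), against 2.05% of all probes. It lay on the negative side, where 1.82% of all probes passed. Unadjusted p under 0.05 was reached by 4 of 14, against 13.1% of all probes. The medians over SWEET probes were -0.17 in the labelled orientation and -0.28 in the turned one, against 0.017 and 0.031 over all probes tested.

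**Figure D2:**
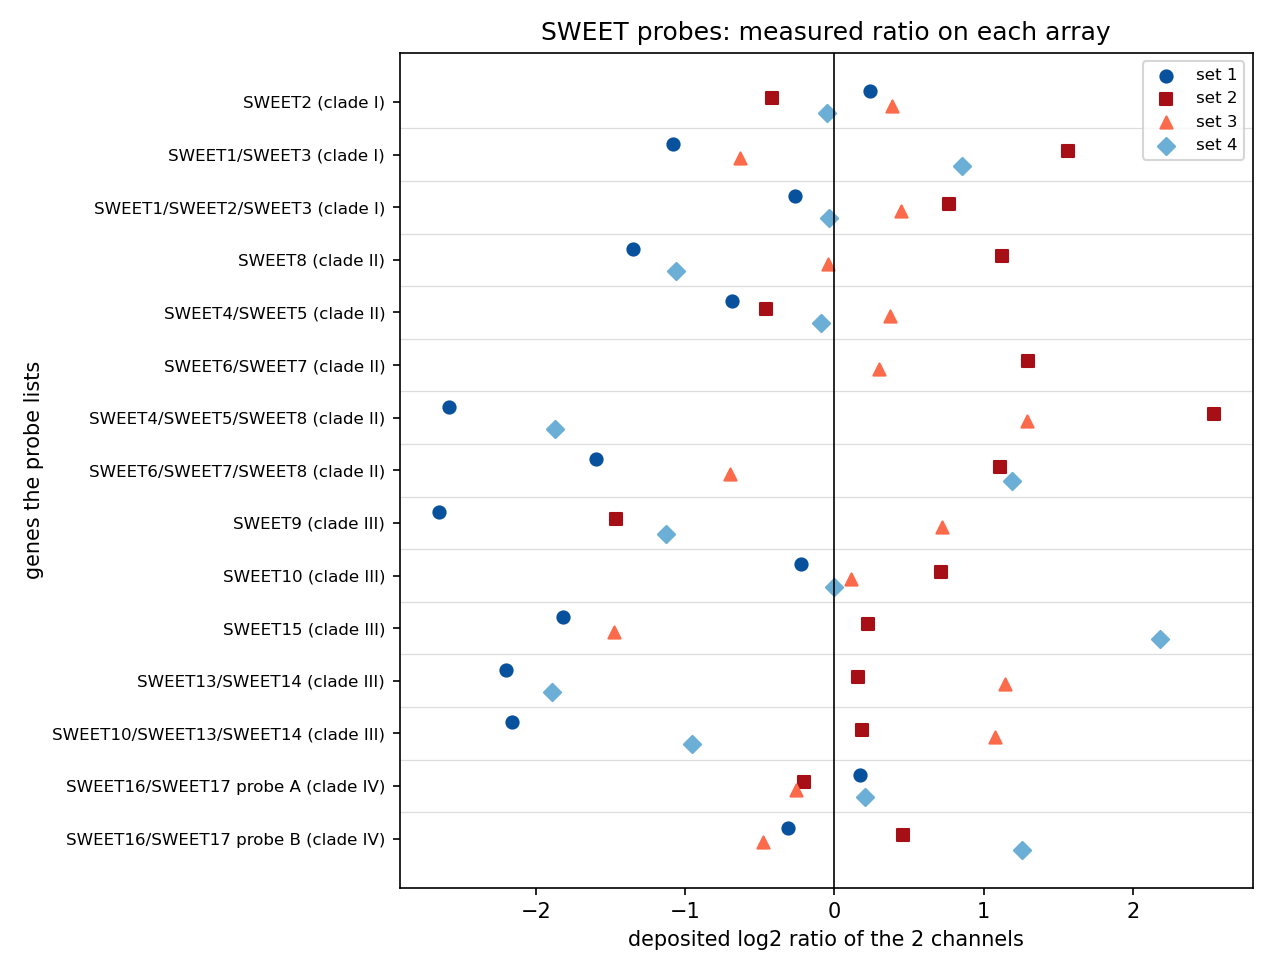
Deposited log2 ratio (x axis) of each of the 15 SWEET probes (rows, by clade) on sets 1 to 4, before any sign was turned. Set 1 lies below 0 for 12 of the 14 probes measured on all arrays, and the SWEET6/SWEET7 probe has points for sets 2 and 3 alone because the others were at the limit of the scale.

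SWEET8, the anther sugar carrier, was negative on 3 arrays and positive on 1. Its own probe had deposited log2 ratios of -1.35, 1.12, -0.042 and -1.06 on sets 1 to 4. Sets 1 and 2 were thus nearly mirror images of each other, whereas set 3 lay near 0 and set 4 was low, though less so than set 1. The mean was -0.36 ± 0.43 (moderated SE, n = 4 arrays) in the labelled orientation, where the arrays overlapped 0 (limma adjusted p = 0.873). That mean moved with single arrays, to -0.035 without set 1 and -0.84 without set 4, and it passed in neither case. The turned mean was -0.87 ± 0.25 (SE, n = 4, limma adjusted p = 0.206, unadjusted p = 0.0130). The value did not pass, although its pair value of -1.24 on sets 1 and 2 was among the lower ones of the family. On sets 3 and 4 its pair value was 0.51.

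The other probes that list SWEET8 had its signs on sets 1 and 2, and each had its sign on 1 of sets 3 and 4. SWEET4/SWEET5/SWEET8 had -2.59, 2.54, 1.29 and -1.87 on sets 1 to 4. Sets 1 and 4 were low and sets 2 and 3 high, with no overlap. SWEET5, AtVEX1 in the annotation, is known from the vegetative cell of pollen, and SWEET4 from the vasculature. The turned mean of this probe was -2.07 ± 0.25 (SE, n = 4), a 4.21-fold difference with a limma adjusted p of 0.0194, and it was the 1 SWEET probe that passed. In the labelled orientation its mean was -0.49 ± 0.91 (SE, n = 4, limma adjusted p = 0.934). Leaving out set 1 (adjusted p = 0.0840), set 2 (adjusted p = 0.0539) or set 4 (adjusted p = 0.0759) ended the call, as did the fits with limit values kept (adjusted p = 0.0728) and with a channel term (adjusted p = 0.0562). It also failed without moderation (adjusted p = 0.270) and with sets averaged to pairs (adjusted p = 0.205), and held without set 3 (adjusted p = 0.0455).

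SWEET6/SWEET7/SWEET8 followed the labelled channels. Its values on sets 1 to 4 were -1.60, 1.11, -0.70 and 1.19. Sets 1 and 3, with apetala2 labelled in channel 1, were low, and sets 2 and 4 were high. Its labelled mean was -1.15 ± 0.17 (SE, n = 4, unadjusted p = 9.28e-04, limma adjusted p = 0.611). The difference of 2.22-fold did not pass. Only 0.132% of all probes had a lower p in that orientation. The turned mean was -0.21 ± 0.50 (SE, n = 4, limma adjusted p = 0.891). The SWEET8 probe minus this one was 0.25, 0.013, 0.66 and -2.25 over sets 1 to 4. These probes thus differed most on set 4.

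The remaining clade II probes were SWEET4/SWEET5 and SWEET6/SWEET7. SWEET4/SWEET5 had -0.68, -0.46, 0.37 and -0.093 on sets 1 to 4. Of its sum of squared ratios, 61.2% lay in the difference between the pair 1, 2 and the pair 3, 4. Another 22.7% lay in the mean of the unturned ratios. The pattern of the labelled orientation held 1.73% and that of the turned one 14.3%. Its labelled mean was 0.060 ± 0.22 and its turned mean -0.17 ± 0.21 (SE, n = 4), with limma adjusted p of 0.971 and 0.762. Although it lists both other genes of the SWEET4/SWEET5/SWEET8 probe, the root mean square difference between them was 2.04. SWEET6/SWEET7 had 1.298 on set 2 and 0.30 on set 3 and sat at the upper limit of 6.64 on sets 1 and 4. It was left out of the fits because fewer than 3 arrays measured it. Spots named empty also sat mostly at the upper limit, 62.8% of those with a value on set 1 and 87.0% on set 4. Of gene probes with a value, 2.43% sat there on set 1 and 2.58% on set 4.

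Like SWEET4/SWEET5, SWEET9, the nectary carrier, followed neither orientation. Its ratios were -2.65, -1.46, 0.72 and -1.13 on sets 1 to 4. Sets 1 and 2 had the same sign despite their opposite labelled channels, unlike most SWEET probes. Of its sum of squares, 46.7% lay in the mean of the unturned ratios, against 15.5% over all probes, and 31.4% in the difference between the pair 1, 2 and the pair 3, 4, against 9.45%. The labelled contrast held 0.976%. Its mean was 0.16 ± 0.72 in the labelled orientation (SE, n = 4, limma adjusted p = 0.977) and -0.76 ± 0.62 in the turned one (SE, n = 4, limma adjusted p = 0.657). The spread between arrays exceeded both means. The labelled mean lay above 0 with all arrays in use but fell below 0 without set 2 (-0.27), set 3 (-0.021) or set 4 (-0.16), and it was 1.103 without set 1. The turned mean was -0.13 without set 1 and -1.5001 without set 2, and it passed in neither case.

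The other sucrose carriers of clade III split in 2 ways. SWEET13 and SWEET14, known for anther dehiscence, share a probe that had -2.20, 0.16, 1.15 and -1.89 on sets 1 to 4. Sets 1 and 4 were low and sets 2 and 3 high without overlap. Its turned mean was -1.35 ± 0.34 (SE, n = 4, unadjusted p = 0.00807, limma adjusted p = 0.160). This 2.55-fold difference did not pass. Without set 2 the mean was -1.75 and passed (limma adjusted p = 0.0496). In the labelled orientation it was 0.17 ± 0.68 (SE, n = 4, limma adjusted p = 0.974). SWEET10/SWEET13/SWEET14 ran with it, at -2.16, 0.18, 1.08 and -0.96 on sets 1 to 4. Its turned mean was -1.09 ± 0.31 (SE, n = 4, limma adjusted p = 0.206) and its labelled mean -0.077 ± 0.57 (SE, n = 4, limma adjusted p = 0.986).

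SWEET10, known to be induced in the shoot apex at the floral transition, has a probe of its own with far smaller ratios. It had -0.23, 0.71, 0.11 and -0.0017 on sets 1 to 4. Only set 2 departed from 0 by more than 0.3. The labelled mean was -0.21 ± 0.17 and the turned mean -0.26 ± 0.16 (SE, n = 4), with limma adjusted p of 0.823 and 0.535. SWEET10 and SWEET13 are direct neighbours in the TAIR10.1 gene table, with 0 genes between them. The probe of SWEET10 alone differed from SWEET10/SWEET13/SWEET14 by a root mean square of 1.21, whereas SWEET13/SWEET14 differed from it by 0.470.

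SWEET15, or SAG29, is known as a senescence-associated gene and a sucrose carrier of seed filling. It had -1.82, 0.22, -1.48 and 2.18 on sets 1 to 4. Sets 1 and 3 were low and sets 2 and 4 above 0, as the labelled channels run, though set 2 was close to 0. Its labelled mean of -1.43 ± 0.34 (SE, n = 4, unadjusted p = 0.00710, limma adjusted p = 0.703) was the largest in size of any SWEET probe in that orientation, a 2.69-fold difference, and did not pass. Only 0.380% of all probes had a larger labelled mean in size. The turned mean was 0.40 ± 0.65 (SE, n = 4, limma adjusted p = 0.825). SWEET15 was thus on the other side of 0 from SWEET13/SWEET14 on sets 3 and 4, with pair values of -1.83 and 1.52, while both were below -1 on sets 1 and 2.

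In clade I, 2 probes that both list SWEET1 and SWEET3 had opposite signs on sets 3 and 4. SWEET1, known as a glucose carrier of the plasma membrane, and SWEET3 share a probe with -1.08, 1.57, -0.63 and 0.86 on sets 1 to 4. Sets 1 and 3 were low and sets 2 and 4 high. Its labelled mean was -1.03 ± 0.18 (SE, n = 4, unadjusted p = 0.00201, limma adjusted p = 0.631). At 2.05-fold, it did not pass. In the turned orientation it was -0.29 ± 0.45 (SE, n = 4, limma adjusted p = 0.817). SWEET1/SWEET2/SWEET3 had -0.27, 0.77, 0.45 and -0.033 and did not share that pattern on sets 3 and 4. The labelled mean was -0.14 ± 0.22 and the turned mean -0.38 ± 0.16 (SE, n = 4), with limma adjusted p of 0.920 and 0.386.

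SWEET2, a carrier of the vacuolar membrane, was the 1 SWEET probe with positive values on all 4 arrays in the labelled orientation. The 4 deposited ratios, 0.24, -0.42, 0.39 and -0.050 on sets 1 to 4, were all small. The labelled mean was 0.27 ± 0.12 (SE, n = 4, limma adjusted p = 0.760) and the turned mean 0.055 ± 0.17 (SE, n = 4, limma adjusted p = 0.915). The sign on set 4 rests on a ratio of -0.050.

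Both probes of clade IV list SWEET16 and SWEET17, the vacuolar carriers, and they had opposite signs on sets 1 and 2 and like signs on sets 3 and 4. Probe A had 0.17, -0.20, -0.26 and 0.21 on sets 1 to 4 and probe B -0.31, 0.46, -0.48 and 1.26. Probe A was small and followed sets 1 and 4 against sets 2 and 3, with 97.8% of its squares there. Probe B was larger and followed the labelled channels. In the labelled orientation the means were -0.023 ± 0.14 for probe A and -0.63 ± 0.19 for probe B (SE, n = 4), with limma adjusted p of 0.981 and 0.755. In the turned orientation they were 0.21 ± 0.11 and 0.24 ± 0.30 (SE, n = 4), with limma adjusted p of 0.489 and 0.774. The root mean square difference between them was 0.674. The median of that difference was 0.448 over 1345 pairs of probes that list the same several genes, with quartiles of 0.292 and 0.732.

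**Figure D3:**
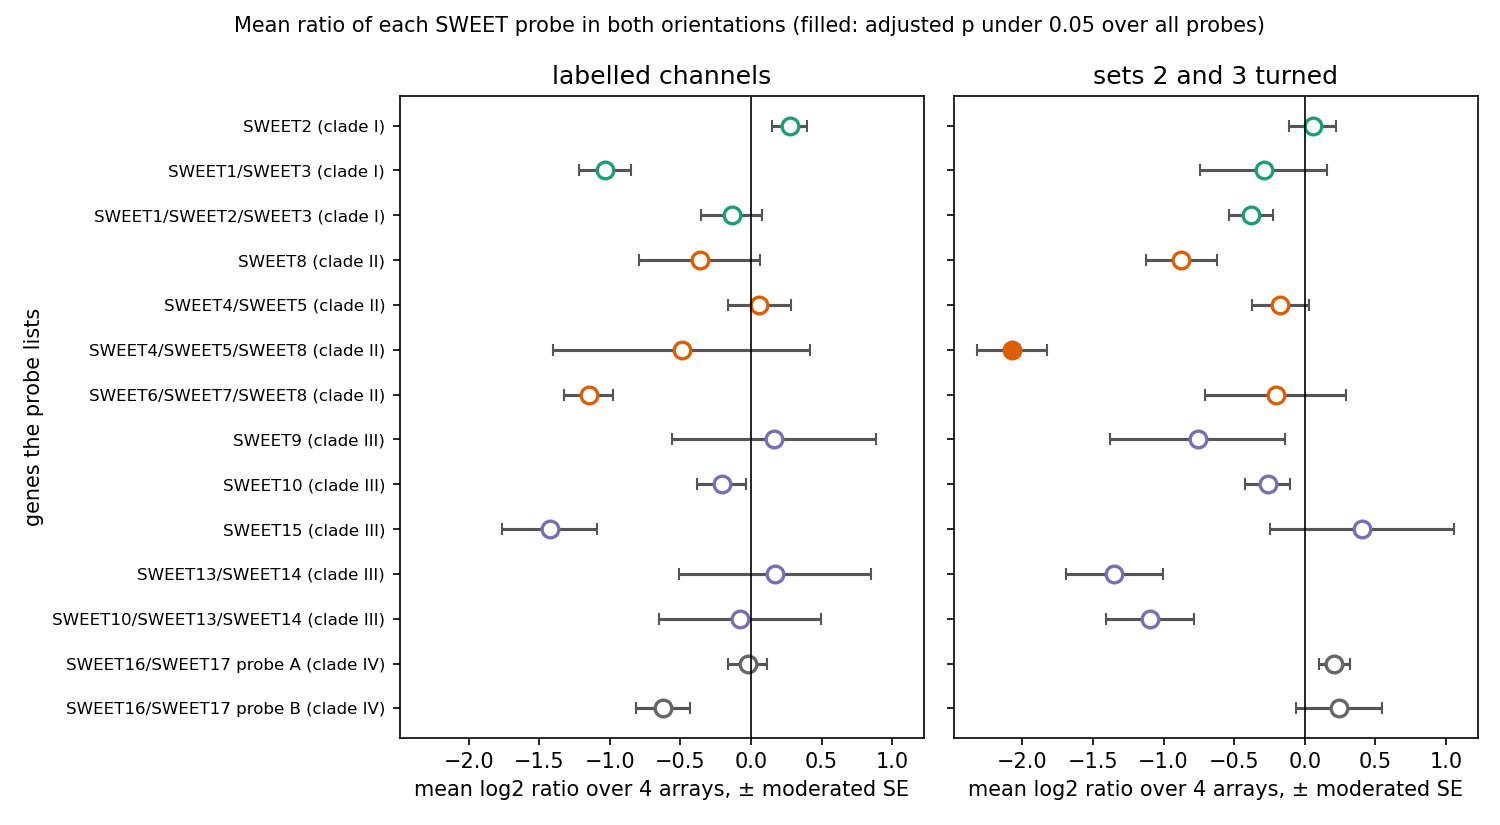
Mean log2 ratio over 4 arrays with its moderated SE (x axis) for the 14 SWEET probes (rows, by clade), in the labelled orientation (left) and the turned one (right). The filled point is the SWEET4/SWEET5/SWEET8 probe at -2.07, the 1 probe with an adjusted p under 0.05 over all probes.

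The family therefore held probes of both patterns side by side. In the labelled orientation 4 of 14 SWEET probes (28.6%) were negative on every array, against 7.58% of all probes, and 1 was positive on every array, against 8.76%. In the turned orientation 5 of 14 (35.7%) were negative on every array, against 10.5% of all probes, and 1 was positive, against 12.4%. The 4 were SWEET15, SWEET1/SWEET3, SWEET16/SWEET17 probe B and SWEET6/SWEET7/SWEET8. The 5 were SWEET10, SWEET13/SWEET14, SWEET1/SWEET2/SWEET3, SWEET4/SWEET5/SWEET8 and SWEET10/SWEET13/SWEET14. For SWEET10 and SWEET1/SWEET2/SWEET3 the sign on set 4 rests on ratios of -0.0017 and -0.033. SWEET13/SWEET14 and SWEET10/SWEET13/SWEET14 list 2 genes in common. Both orientations treat sets 1 and 2 alike, where most SWEET probes had a pair value below 0. The negative counts of the 2 orientations are thus not separate results. Of their summed squares, SWEET probes had 49.1% in the turned contrast, which sets 1 and 4 form against 2 and 3, and 28.5% in the labelled one. Over all probes these shares were 50.3% and 24.8%. By probe, the labelled contrast held the largest share for 5 of 14 SWEET probes, against 29.3% of all probes, and the turned contrast for 7 of 14, against 37.7%.

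**Figure D4:**
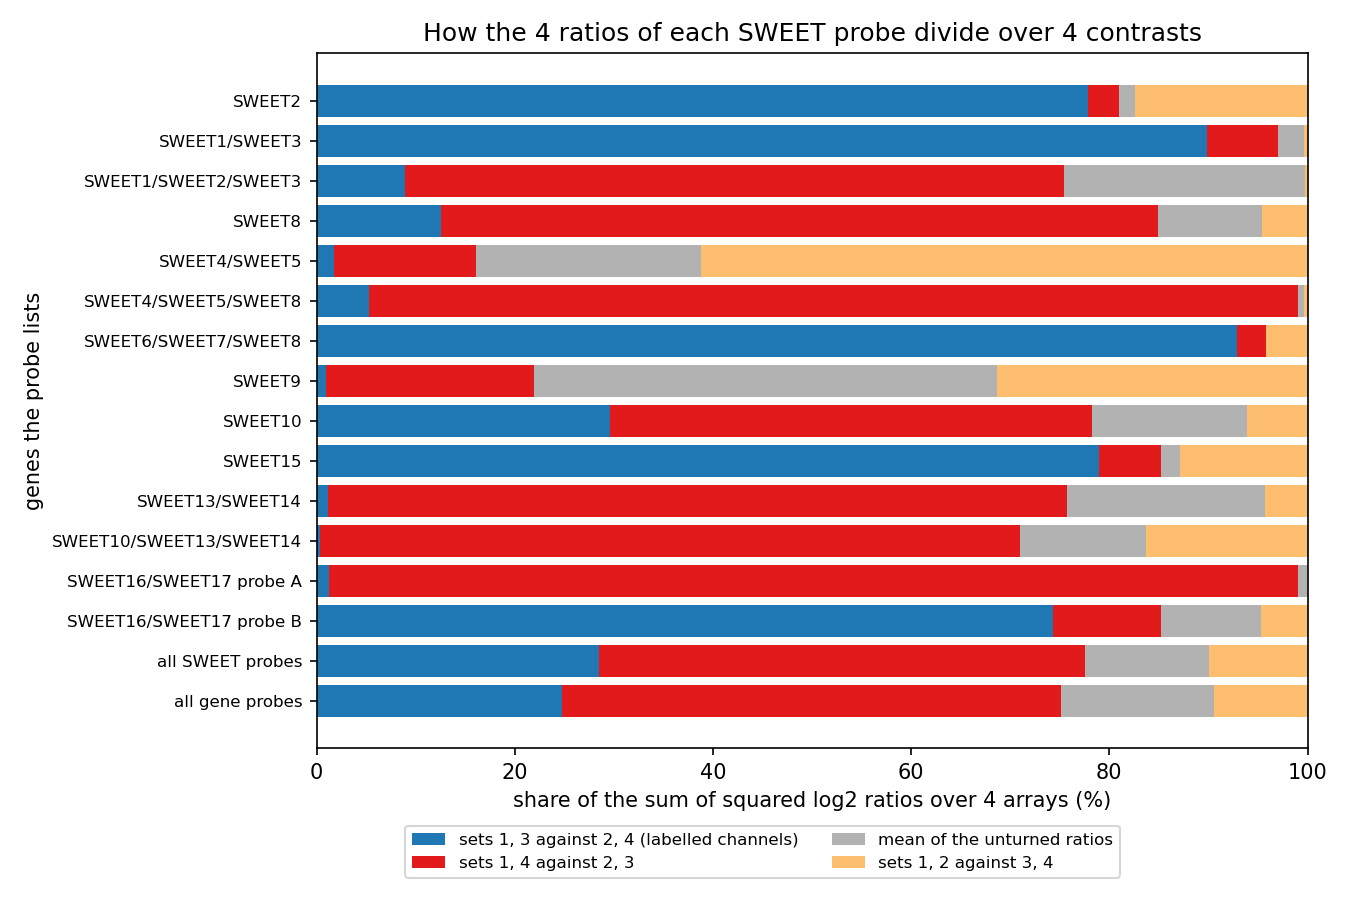
Share of each probe's sum of squared log2 ratios (x axis, percent) in 4 contrasts of the arrays, for the 14 SWEET probes, for their sum and for all gene probes measured on 4 arrays. SWEET6/SWEET7/SWEET8 and SWEET1/SWEET3 lie almost wholly in the labelled contrast. SWEET4/SWEET5/SWEET8 and SWEET16/SWEET17 probe A lie so in that of sets 1 and 4 against sets 2 and 3. SWEET9 and SWEET4/SWEET5 lie mostly in neither.

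By their median pair values, probes that list pollen markers lay below 0 on sets 1 and 2 and above 0 on sets 3 and 4. The SWEET probes with these signs were SWEET8, SWEET9, SWEET10, SWEET4/SWEET5, SWEET13/SWEET14, SWEET1/SWEET2/SWEET3, SWEET4/SWEET5/SWEET8 and SWEET10/SWEET13/SWEET14. The share of all probes with these signs was not counted. A list of 36 mature pollen symbols matched 31 genes of the gene table. Of these genes, 6 were listed by 8 tested probes. Of the 8 probes, 7 passed on the negative side in the turned orientation, against 1.82% of all probes. Each of the 7 lists several genes, so its value cannot be given to the pollen gene. Over the 8 probes the median pair value was -2.13 on sets 1 and 2 and 2.35 on sets 3 and 4. In the labelled orientation none of the 8 passed. There 3 of their 8 means lay below 0, and the median of the means was 0.11. TUA1, an alpha-tubulin of pollen and the 1 gene of that list alone on a probe, had -0.49, 0.71, 0.36 and -0.56 on sets 1 to 4. Its turned mean was -0.53 ± 0.12 (SE, n = 4, limma adjusted p = 0.121) and its labelled mean -0.070 ± 0.26 (SE, n = 4). The part of pollen RNA in the SWEET values was not tested.

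Anther genes lay on both sides of 0. A list of 34 anther and tapetum symbols matched 25 genes of the gene table. Of these genes, 6 were listed by 8 tested probes, none of which passed in either orientation. Their median pair value was -0.61 on sets 1 and 2 and -0.060 on sets 3 and 4. ATA27, a beta-glucosidase gene of the anther, had pair values of -2.34 and 0.20, and ATA20, another anther gene, -2.01 and 0.11. For each, the pair value of sets 1 and 2 was thus far below 0 and that of sets 3 and 4 nearer to 0. The second probe of ATA20 had -1.25 and -0.074 and that of ATA27 0.31 and -0.18, so the 2 probes of ATA27 differed in sign on both. EMS1, a receptor kinase of tapetum fate, ran the other way with 0.93 and -0.37. SPL, which initiates the sporangium, had -0.47 and -0.046. The turned means of these probes ranged from -1.27 for ATA27 to 0.65 for EMS1, with limma adjusted p of 0.332 and 0.258. The part of anther tissue in the SWEET values was not tested.

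Few other genes of sugar transport were listed by a probe. The 43 symbols listed for further sugar carriers matched 36 genes of the gene table, and 5 tested probes listed any of them. Of the 5, 1 passed on the negative side in the turned orientation, against 1.82% of all probes, and none did in the labelled one. The median of their means was -0.14 in the turned orientation and -0.052 in the labelled one. TMT1, a vacuolar monosaccharide carrier and the 1 gene of that list with a probe of its own, had 0.18, 0.17, 0.029 and 0.25 on sets 1 to 4. Its labelled mean was -0.052 ± 0.13 and its turned mean 0.058 ± 0.13 (SE, n = 4). A list of 25 symbols of sucrose synthesis and cleavage matched 18 genes. Of these, cwINV6, named after the cell wall invertases, alone was listed, by 2 probes of its own. The one with the lower p had a labelled mean of 0.066 ± 0.13 and a turned mean of -0.12 ± 0.13 (SE, n = 4). On the other these were -0.43 ± 0.15 and -0.043 ± 0.23 (SE, n = 4), and none of these values passed.

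A list of 30 pollen wall symbols matched 20 genes of the gene table once SWEET genes were set aside. SWEET genes were set aside in every list but their own. Among the 20, INP1, needed for pollen apertures, was the 1 listed by a probe. Its ratios were -0.11, -0.20, -0.051 and 0.048 on sets 1 to 4. These were near 0 on every array, whereas those of SWEET8 were near 0 on set 3 alone. Of 16 nectary genes, JMT, a jasmonate methyltransferase, was the 1 listed, by 3 probes. The probe of its own with the lower p had -0.40, -0.61, 0.14 and 0.35, with a labelled mean of 0.00086 ± 0.21 and a turned mean of 0.11 ± 0.20 (SE, n = 4). The other such probe had means of -0.36 ± 0.27 and 0.15 ± 0.29 (SE, n = 4). None of the 3 passed in either orientation. Too few genes of these lists were listed by a probe to describe pollen wall or nectary genes at large.

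Other floral tissues gave mixed sides. Of 17 carpel and ovule genes, 6 were listed by 11 tested probes, and 2 of those lay on the positive side and passed in the turned orientation, against 0.225% of all probes. CES, a basic helix-loop-helix factor, had pair values of 2.52 and -1.72, the reverse of SWEET4/SWEET5/SWEET8. INO, of the outer integument, had -0.65 and 0.67, while its other probes had turned means of -0.045 and -0.083. SEU, a co-repressor, had 0.14 and -0.083. Of 23 photosynthesis genes, 4 were listed by 6 tested probes, and none passed. PRK, the phosphoribulokinase, had pair values of 0.090 and 1.11, and SBPASE, of the Calvin cycle, 0.073 and 0.39. The list of 14 floral organ identity symbols matched 12 genes. Of these, 1 was listed, by 2 probes beside other genes, with means between -0.30 and 0.28 in both orientations.

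The genes whose ratios lay nearest to those of a SWEET gene were sought among 5511 probes with 1 gene and 4 values, by the root mean square difference over the 4 arrays. For SWEET8 these were AT2G40250, AT1G74870, AT1G50690, AT4G05540 and AT1G72460, at 0.138 to 0.290. AT2G40250 had -1.16, 1.15, -0.18 and -1.20 on sets 1 to 4. For SWEET9 no probe lay close, the nearest being AT3G29830 at 0.790, AT5G25990 at 0.792, AT2G30810 at 0.841, AT2G15360 at 0.871 and AT1G66090 at 0.873. For SWEET15 they were AT1G76240 at 0.476, AT5G43180 at 0.518, AT2G32200, PAP20 and AT1G70390 at 0.694. SWEET2 and SWEET10, whose ratios were small, had neighbours nearer than 0.112, which were AT2G45460, AT3G50090, AT4G17440, AT4G15030 and AT4G33730 for SWEET2. For SWEET10 they were AT4G28025, AT3G01720, AT1G32740, AT3G18260 and AT2G34060. Nearness over 4 arrays is a description of these ratios alone.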

How the data were processed

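The deposited table gives 1 log2 ratio per spot and array. The authors normalized it after a method published before, per the labels. For the scanner, background correction, filters and numerator, the sources used here say nothing. Of 26933 spots, 459 control spots were left out. Values within 0.0001 of the limit of the scale, 6.64 on the log2 scale, were treated as not measured. Each orientation was fitted as an intercept with lmFit and eBayes of limma 3.58.1 (R 4.3.3) on all probes with at least 3 values, against 0, with Benjamini-Hochberg adjustment over all probes and a threshold of 0.05. The fit was tested on simulated data. Errors are moderated standard errors over 4 arrays. The number of arrays limits the precision.

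Gene names come from GEO's platform annotation, with symbols brought up to date by the TAIR10.1 gene table. Probes that list several genes name none. No coordinates or sequences are printed. The members, gene lists and the second orientation were chosen with earlier results of these data known. Named genes were every SWEET probe, the 5 nearest probes of each SWEET gene with its own probe, and up to 6 genes per list with the lowest p in the turned orientation. Alternatives were limit values kept, median centring, complete probes only, no moderation, a channel term, sets averaged to pairs and each array left out.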

Additional observations from a re-analysis of the deposited data

How the results depend on the processing

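No SWEET probe passed in the labelled orientation under any alternative run there, with limma adjusted p from 0.564 to 0.9999 over 140 values. In the turned orientation 4 of 140 values passed, 3 of SWEET4/SWEET5/SWEET8 and 1 of SWEET13/SWEET14. Turning sets 2 and 3 in place of sets 2 and 4 moved 6 means across 0, to -0.76 for SWEET9, 0.40 for SWEET15, -0.17 for SWEET4/SWEET5, -1.35 for SWEET13/SWEET14, and 0.21 and 0.24 for SWEET16/SWEET17 probes A and B. Means that changed sign when an array was left out ranged, in the labelled orientation, from -0.27 to 1.103 for SWEET9, -0.074 to 0.31 for SWEET4/SWEET5, -0.41 to 0.96 for SWEET13/SWEET14, -0.098 to 0.055 for SWEET16/SWEET17 probe A, -0.33 to 0.071 for SWEET1/SWEET2/SWEET3, -1.28 to 0.21 for SWEET4/SWEET5/SWEET8 and -0.46 to 0.62 for SWEET10/SWEET13/SWEET14. In the turned orientation they ranged from -0.066 to 0.20 for SWEET2, -0.19 to 1.14 for SWEET15, -0.67 to 0.13 for SWEET1/SWEET3, -0.097 to 0.47 for SWEET16/SWEET17 probe B and -0.67 to 0.26 for SWEET6/SWEET7/SWEET8. Over all probes 528 passed in the turned orientation, 158 with limit values kept, 273 with a channel term, 0 without moderation (2941 at an unadjusted p under 0.05) and 0 with sets averaged to pairs (1934 so). Leaving out an array gave 94 to 441, with 94 without set 1, 117 without set 3 and 116 without set 4. The causes were not tested. Dixon's test singled out no array in 28 sets of 4 values of SWEET probes.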
